A study of Mus musculus with 4 samples.

Results

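The 10 transcription factor genes described here belong to fibroblasts and their mesenchymal relatives, and were measured in infarcted mouse hearts. They are Tcf21, Meox1, Meox2, Twist1, Prrx1, Osr1, Scx, Snai2, Runx1 and Sox9. They were taken by symbol as a list, 10 of the 19505 symbols on the array, and every one was measured by 1 probe. The hearts came from 2 mice of the group TTg-MI (genotype Tcf21iCre/Tomato/MGTH2A) and 2 mice of the group Ctrl-MI (genotype Tcf21iCre/Tomato). All 4 mice were male, had the left coronary artery tied off at 8 weeks of age, and gave their whole hearts 3 months later, after an early echocardiographic screen that removed mice with a preserved ejection fraction. Both groups thus carried the Cre recombinase named for Tcf21 and the Tomato reporter, and differed by MGTH2A, a transgene for the reprogramming factors Mef2c, Gata4, Tbx5 and Hand2, which together turn cultured fibroblasts towards cardiomyocyte-like cells. Hearts are numbered by the replicate numbers of the labels, and the series calls them independent biological replicates. RNA was hybridised to Clariom S Mouse arrays, which give 1 log2 value per probe. The comparison asks what the factors that build and maintain fibroblast identity do when such a construct is present in Tcf21-lineage cells of a chronic infarct.

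Cardiac fibroblasts arise mostly from the epicardium, and Tcf21 is needed there for the fibroblast fate and stays on in resident fibroblasts of the adult heart. After an infarct these cells proliferate, become contractile and matrix-producing, and later settle in the scar as matrifibrocytes, cells with a cartilage- and tendon-like programme. Meox1, Runx1, Sox9 and Scx are known from mouse studies as factors of the activated or scar-forming states, while Prrx1, Osr1, Twist1 and Snai2 mark mesenchymal cells more widely. Several are also used by other cells of the heart, Meox2 and Sox9 in endothelium and valves and Runx1 in blood cells.

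The 4 arrays had medians of 6.55 to 6.62 and lower quartiles of 5.41 to 5.48 log2 units. None of the 10 genes lay under the lower quartile of any array. Muscle markers were near the top of the scale everywhere, the 8 cardiomyocyte markers averaging 18.66 and 18.72 on the TTg-MI arrays and 18.29 and 18.65 on the Ctrl-MI arrays. Atrial muscle genes differed between the hearts. Ctrl-MI heart 2 was the lowest of the 4 arrays for Myl7, Myl4, Sln and Dkk3, with the light chain gene Myl7 at 12.45 and 11.47 in TTg-MI and at 10.44 and 5.61 in Ctrl-MI. Bmp10 read 12.38 and 11.82 in TTg-MI and 5.31 and 5.39 in Ctrl-MI, under the lower quartile of both Ctrl-MI arrays. Nppa (19.91 and 18.85 in TTg-MI, 19.92 and 19.90 in Ctrl-MI) and Nr2f2 (10.95 and 10.83 in TTg-MI, 11.10 and 10.88 in Ctrl-MI) were not low in either Ctrl-MI heart. Ctrl-MI heart 1 correlated less with TTg-MI hearts 1 and 2 (Pearson's r across probes of 0.982 and 0.977) than Ctrl-MI heart 2 did (0.991 and 0.989). Within groups r was 0.987 for the Ctrl-MI hearts and 0.991 for the TTg-MI hearts. Ctrl-MI heart 2 thus correlated more with both TTg-MI hearts than with Ctrl-MI heart 1. Values without a single array are given for each of the 10 factors and for many other named genes. Of the construct's factors only Tbx5, picked by name, is given here, and values of Mef2c, Gata4 and Hand2 are not reported. Whether the Tbx5 probe reads the transgene was not tested. Tbx5 averaged 10.20 ± 0.67 in TTg-MI and 7.75 ± 0.19 in Ctrl-MI (SD, n = 2 each). Its unadjusted p was 4.43e-04 in limma and its adjusted p was 0.530.

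Most of the fibroblast factors had a lower mean in TTg-MI hearts, by amounts that varied widely. The mean was lower in TTg-MI for 8 of 10 genes, against 48.2% of all named genes, and lower by at least 1 log2 unit for 4 of 10 (Meox1, Tcf21, Runx1 and Sox9), against 1.45%. The median log2 difference was -0.41 over the 10 genes and 0.0086 over all named genes. In limma 5 of 10 were lower at an unadjusted p of at most 0.05, against 5.28% of named genes, and 1 of 10 (Meox2) was higher, against 3.21%. After Benjamini-Hochberg adjustment over all probes 0 of 10 passed, where 1 of 22206 probes (0.0045%) did, that of the atrial gene Bmp10 (adjusted p 0.00489 in limma). The smallest adjusted p among the 10 was 0.531, for Tcf21. The groups were apart with TTg-MI the lower for 6 of 10 genes, against 19.1% of named genes, and with TTg-MI the higher for 1, against 19.2%. For any single gene, 2 arrays against 2 allow an exact two-sided permutation p of 0.33 at the smallest.

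**Figure D1:**
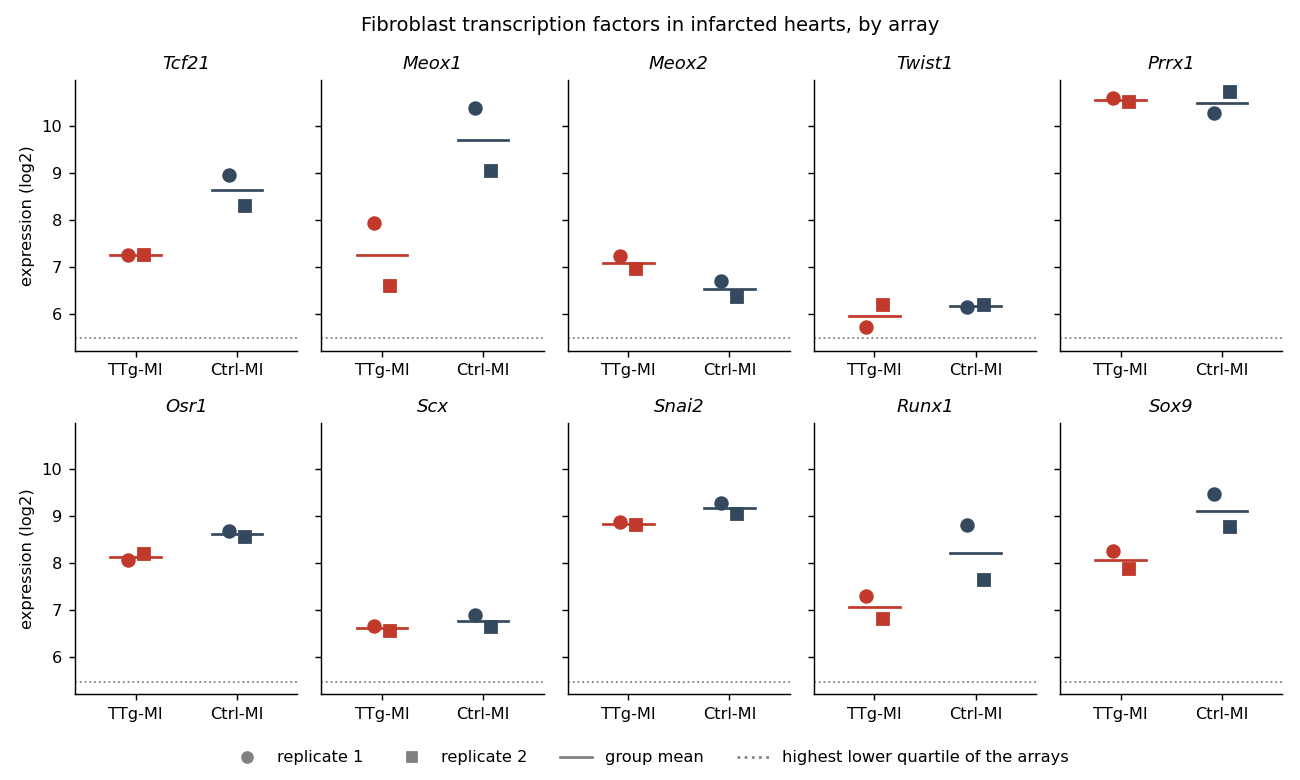
Expression (log2, y axis) of each of the 10 genes on the TTg-MI arrays (red) and the Ctrl-MI arrays (dark), with replicate 1 as circles, replicate 2 as squares, group means as lines and the highest lower quartile of the arrays, 5.48, dotted; heights of different genes read different probes and are not comparable. Tcf21, Meox1, Runx1, Sox9, Osr1 and Snai2 show both TTg-MI points below both Ctrl-MI points, and Meox2 shows them above.

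The basic helix-loop-helix factors come first, proteins that bind DNA in pairs at E-boxes. Tcf21, the factor of epicardial and resident cardiac fibroblasts, stood at 7.26 on both TTg-MI arrays, against 8.96 and 8.30 in Ctrl-MI. The TTg-MI hearts were thus nearly equal and both low, with a gap of 1.03 log2 units to the nearer Ctrl-MI heart. The log2 difference was -1.37 (95% interval -1.98 to -0.75, SE 0.25), which is 2.58-fold lower, with an unadjusted p of 0.00186 and an adjusted p of 0.531 in limma. Leaving out Ctrl-MI heart 1 gave -1.04 and leaving out Ctrl-MI heart 2 gave -1.70. Leaving out either TTg-MI array left it at -1.36 or -1.37. How the Tcf21iCre allele, which both groups carry, bears on the probe's signal was not analysed here.

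The sequence at the start of Tcf21 is shown because E-boxes are the sites that proteins of its own family bind. RefSeq promoter windows, 250 bases before to 50 after a gene's start in build GRCm38.p6, were found for 5 of the 10 genes, with 6 windows since Runx1 has a pair of starts. The motifs searched on both strands were the E-box CANNTG, its Snail form CAGGTG (which is also an E-box), the Runx core TGTGGT, the homeobox site TAATTA, the Sox site ACAANG, the AP-1 site TGANTCA and the T-box half-site AGGTGT. The Tcf21 window (chr10:22820094-22820393, minus strand, 53.3% G and C) held none of them, while 72.3% of 32851 windows hold an E-box. No match says only that these letters are missing from the window.
Tcf21 window: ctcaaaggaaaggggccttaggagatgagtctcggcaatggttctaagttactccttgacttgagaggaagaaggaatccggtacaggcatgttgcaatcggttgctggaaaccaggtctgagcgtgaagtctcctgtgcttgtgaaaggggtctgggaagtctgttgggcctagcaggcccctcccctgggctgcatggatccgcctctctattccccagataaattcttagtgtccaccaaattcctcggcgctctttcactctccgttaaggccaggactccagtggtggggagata

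Twist1, a factor of mesenchymal development, read 5.72 and 6.18 in TTg-MI and 6.14 and 6.20 in Ctrl-MI. The groups overlapped, and it was the 1 gene of the 10 removed by a filter on dim probes. Its log2 difference was -0.22 (95% interval -0.72 to 0.28), and 0.010 without TTg-MI heart 1. Scx, the scleraxis factor of tendons that also drives collagen genes in cardiac fibroblasts, read 6.67 and 6.55 in TTg-MI and 6.89 and 6.63 in Ctrl-MI. These values overlapped as well. The difference of Scx was -0.15 (95% interval -0.58 to 0.27), and -0.023 without Ctrl-MI heart 1. For neither gene do the intervals reach the size measured for Tcf21. The Twist1 window held a T-box half-site and no E-box, and 13.7% of windows hold that half-site.

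Among the homeobox factors the paralogs Meox1 and Meox2 lay on opposite sides of zero. Meox1, known from mouse heart failure as a regulator of fibroblast activation, read 7.93 and 6.59 in TTg-MI hearts and 10.38 and 9.04 in Ctrl-MI hearts. Replicates differed by 1.34 log2 units within each group, yet the groups did not overlap and lay 1.11 log2 units apart at their nearest arrays. Its log2 difference of -2.45 (95% interval -3.91 to -0.99, SE 0.59) was the largest of the 10 genes and amounts to 5.46-fold lower in TTg-MI. The unadjusted p was 0.00691 and the adjusted p 0.546 in limma. The difference was -1.78 without Ctrl-MI heart 1 and -3.12 without Ctrl-MI heart 2, with adjusted p in limma of 0.783 and 0.0610. It was -3.12 without TTg-MI heart 1 and -1.78 without TTg-MI heart 2.

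Meox2, a growth-restraining factor of vascular cells, read 7.24 and 6.95 in TTg-MI and 6.70 and 6.36 in Ctrl-MI. Both TTg-MI hearts were above both Ctrl-MI hearts, by 0.24 log2 units at the nearest arrays. The log2 difference was 0.56 (95% interval 0.063 to 1.06), 1.48-fold higher in TTg-MI, with an unadjusted p of 0.0333 and an adjusted p of 0.583 in limma. It was 0.73 without Ctrl-MI heart 1, 0.39 without Ctrl-MI heart 2 and 0.41 without TTg-MI heart 1, and the unadjusted p of the last pair was 0.129 and 0.173. The differences of the paralogs were 3.01 log2 units apart, with an exact permutation p of 0.33, the smallest that 6 splits of the arrays allow. Of 9 endothelial markers measured, 6 had a lower TTg-MI mean. The list averaged 11.82 and 11.41 in TTg-MI and 11.80 and 11.52 in Ctrl-MI, the receptor gene Tie1 being higher (0.69, unadjusted p 0.0305) and Pecam1 lower (-0.56, unadjusted p 0.0263). Without TTg-MI heart 1 the Tie1 difference was 0.44, and without Ctrl-MI heart 1 the Pecam1 difference was -0.37. The part of endothelial cells in the Meox2 difference was not tested.

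The Meox2 window (chr12:37108290-37108589, plus strand) is printed as that of the 1 gene of the 10 that lay higher in TTg-MI without overlap. It held 1 E-box, in capitals, that begins 82 bases before the start, and 2 Runx cores, which 16.8% of windows hold at least once.
Meox2 window: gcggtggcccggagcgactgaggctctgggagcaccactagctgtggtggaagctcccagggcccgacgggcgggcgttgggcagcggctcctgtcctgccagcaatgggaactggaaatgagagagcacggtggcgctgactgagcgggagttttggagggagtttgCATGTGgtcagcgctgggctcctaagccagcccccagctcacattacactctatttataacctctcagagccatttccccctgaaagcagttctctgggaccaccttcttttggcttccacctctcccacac

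Prrx1, the paired-related homeobox factor of mesenchyme and fibroblasts, was level between the groups. It read 10.59 and 10.50 in TTg-MI and 10.28 and 10.72 in Ctrl-MI, so that both TTg-MI hearts lay between the Ctrl-MI hearts. The log2 difference was 0.045 (95% interval -0.45 to 0.54, unadjusted p 0.831), and -0.18 without Ctrl-MI heart 1. The interval does not reach the size measured for Tcf21. Ctrl-MI heart 1, which gave the highest value of 7 of the 10 genes (29.7% of named genes), gave the lowest for Prrx1. The Prrx1 window held 1 homeobox site, found in 5.29% of windows.

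Of the zinc finger factors, Osr1, a factor of lateral mesoderm and connective tissue, read 8.08 and 8.21 in TTg-MI and 8.69 and 8.57 in Ctrl-MI. Replicates of both groups lay within 0.13 log2 units of each other, and the groups were 0.36 apart at their nearest arrays. The difference was small but even, -0.49 (95% interval -0.88 to -0.099, SE 0.16), with an unadjusted p of 0.0226 and an adjusted p of 0.571 in limma. It ranged from -0.55 to -0.42 as single arrays were left out, and its unadjusted p was over 0.05 without Ctrl-MI heart 1 (0.0770), TTg-MI heart 1 (0.124) or TTg-MI heart 2 (0.0610). Snai2, known as Slug, a repressor of epithelial genes, read 8.87 and 8.81 in TTg-MI and 9.29 and 9.05 in Ctrl-MI. The groups did not overlap, at a gap of 0.18. Its difference of -0.33 had a 95% interval from -0.74 to 0.083 (unadjusted p 0.0977), and was -0.21 without Ctrl-MI heart 1.

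Runx1, the Runt factor that is best known from blood formation and is induced in injured hearts, read 7.30 and 6.82 in TTg-MI and 8.81 and 7.64 in Ctrl-MI. The groups did not overlap, but the Ctrl-MI hearts differed from each other by 1.16 log2 units, as much as the groups did on average. The log2 difference was -1.16 (95% interval -2.17 to -0.15, SE 0.40), 2.24-fold lower, with an unadjusted p of 0.0307 and an adjusted p of 0.578 in limma. It was -0.58 without Ctrl-MI heart 1, where the unadjusted p was 0.0681. Without Ctrl-MI heart 2 it was -1.75. Without TTg-MI heart 2 it was -0.93, with an unadjusted p of 0.127.

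Markers of leukocytes, cells that also use Runx1, were lower on the same arrays. All 9 measured had a lower TTg-MI mean, against 48.2% of all named genes. In limma 5 were lower at an unadjusted p of at most 0.05, against 5.28%, and 0 after adjustment. The list averaged 8.05 and 7.70 in TTg-MI and 9.42 and 8.45 in Ctrl-MI. Lysozyme (Lyz2) differed by -1.98 (SE 0.59) and the Fc receptor chain gene Fcer1g by -1.27 (SE 0.39), and without Ctrl-MI heart 1 by -1.32 and -0.67. Without TTg-MI heart 2 the Lyz2 difference was -1.29. The part of leukocytes in the Runx1 difference was not tested.

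Both starts of Runx1 are printed because they differ in the motifs at hand, while the array gives 1 value for the gene. The upstream window (chr16:92826025-92826324, minus strand, 45.0% G and C) held 3 E-boxes, in capitals, the middle one of the Snail form, and 2 Runx cores. The downstream window (chr16:92697280-92697579, minus strand, 69.0% G and C) held none of the motifs searched. The Snail form is found in 20.2% of windows.
Runx1 upstream window: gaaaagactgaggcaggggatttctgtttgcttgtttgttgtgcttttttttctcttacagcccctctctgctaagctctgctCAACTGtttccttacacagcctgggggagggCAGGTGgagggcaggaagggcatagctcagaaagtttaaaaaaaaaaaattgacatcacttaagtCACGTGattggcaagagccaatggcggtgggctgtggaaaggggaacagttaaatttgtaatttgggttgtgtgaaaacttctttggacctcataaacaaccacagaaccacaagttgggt
Runx1 downstream window: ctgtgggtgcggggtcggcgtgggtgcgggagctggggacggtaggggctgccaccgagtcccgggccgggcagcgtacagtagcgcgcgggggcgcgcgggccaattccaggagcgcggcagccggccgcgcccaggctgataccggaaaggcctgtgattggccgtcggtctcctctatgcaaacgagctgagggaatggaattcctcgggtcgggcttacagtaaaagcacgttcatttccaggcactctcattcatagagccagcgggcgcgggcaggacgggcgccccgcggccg

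Sox9, the HMG-box factor of cartilage that is also expressed in heart valves and scar fibroblasts, read 8.26 and 7.88 in TTg-MI and 9.47 and 8.76 in Ctrl-MI. The groups were 0.50 log2 units apart at their nearest arrays. The difference was -1.05 (95% interval -1.75 to -0.34, SE 0.28), 2.07-fold lower, with an unadjusted p of 0.0115 and an adjusted p of 0.546 in limma. It was -0.69 without Ctrl-MI heart 1 and -1.40 without Ctrl-MI heart 2. Without TTg-MI heart 2 its unadjusted p was 0.0610. Of 7 markers of valve and cartilage tissue 5 had a lower TTg-MI mean and 0 reached an unadjusted p of 0.05. That list averaged 7.67 and 7.26 in TTg-MI and 8.20 and 7.35 in Ctrl-MI, where the groups overlapped.

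**Figure D2:**
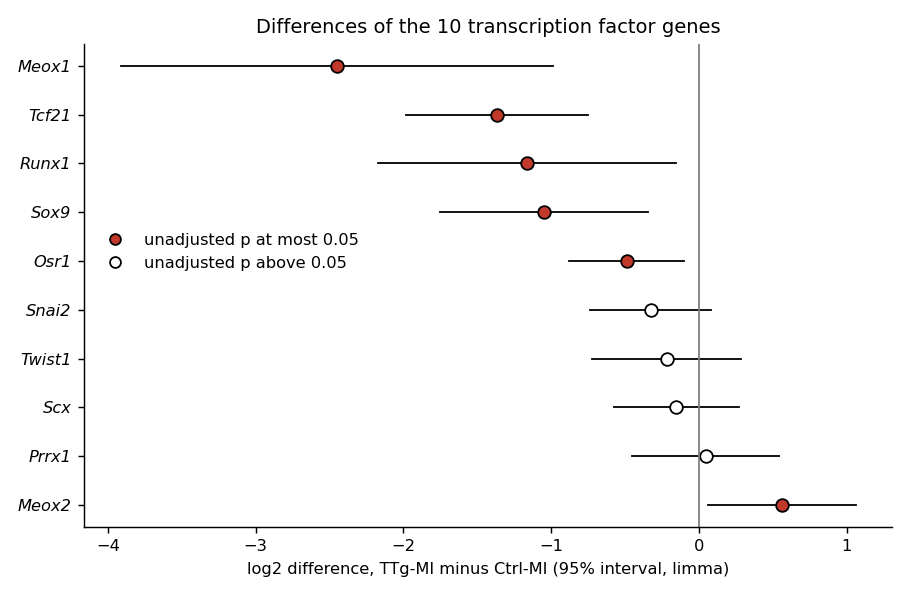
Log2 difference, TTg-MI minus Ctrl-MI (x axis), of each of the 10 genes with its 95% interval from limma; filled points have an unadjusted p of at most 0.05. Meox1 at -2.45 has the widest interval, the intervals of Snai2, Twist1, Scx and Prrx1 span 0, and Meox2 at 0.56 is the 1 filled point to the right of 0.

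The genes thus formed no single pattern across the arrays. For 6 of 10 (Tcf21, Meox1, Scx, Snai2, Runx1 and Sox9) Ctrl-MI heart 1 was the highest and TTg-MI heart 2 the lowest array, an order that 11.7% of named genes share. The Tcf21 values of the TTg-MI hearts differed by just 0.0036. Tcf21 and Meox1 kept an unadjusted p under 0.05 in limma in each of the 4 fits that left out an array, with 1.63e-04 to 0.0104 for Tcf21 and 0.00129 to 0.0260 for Meox1. Osr1, Runx1, Sox9 and Meox2 each lost it in at least 1 of those fits. How many of the 10 were lower at that threshold depended on the array left out. An ordinary linear model on all 4 arrays, which shares no variance between probes, left 1 of the 10 lower at that threshold. That gene was Osr1, so Tcf21 and Meox1 did not keep it there.

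**Figure D3:**
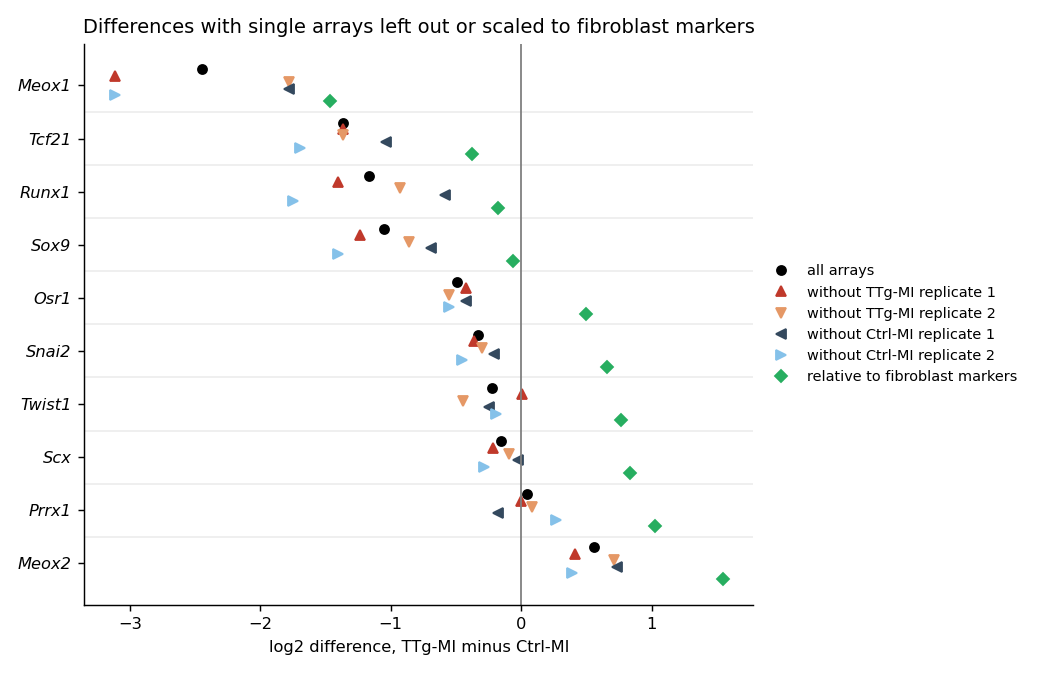
Log2 difference, TTg-MI minus Ctrl-MI (x axis), of each of the 10 genes with all arrays (black), with each array left out in turn (triangles) and after subtracting the mean of the fibroblast markers from each array (green diamonds). Meox1 stays between -3.12 and -1.46, whereas Prrx1 and Twist1 cross 0 and the diamonds of Osr1, Snai2, Twist1 and Scx lie above 0.

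The fibroblast factors were read in whole hearts, where fewer fibroblasts and less RNA per fibroblast cannot be told apart. All 11 measured markers of fibroblasts at large were lower on average in TTg-MI, with a median log2 difference of -0.96. For all 11 both TTg-MI hearts were below both Ctrl-MI hearts, against 19.1% of all named genes. In limma 7 were lower at an unadjusted p of at most 0.05, against 5.28%, while 0 passed adjustment. Dpep1, a dipeptidase gene, differed by -0.74 (SE 0.16) and the actin-severing gelsolin gene Gsn by -1.02 (SE 0.24). The list averaged 11.48 and 10.93 in TTg-MI and 12.55 and 11.84 in Ctrl-MI. The gene Pdgfra, the usual receptor marker of these cells, was not analysed here. Without Ctrl-MI heart 1 the median of the list was -0.65.

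The factors were also set against the mean of these markers on each array, which moves every gene's difference by the same amount. On that scale the log2 difference was -1.46 for Meox1, -0.38 for Tcf21, -0.18 for Runx1 and -0.063 for Sox9. It was 0.50 for Osr1, 0.66 for Snai2, 0.77 for Twist1, 0.83 for Scx, 1.03 for Prrx1 and 1.55 for Meox2. The same scaling puts the median of all named genes at 0.99, close to Prrx1. Tcf21, Runx1 and Sox9 lay near the mean of the fibroblast markers, whose own unscaled differences ran from -2.05 to -0.21. Leukocyte and matrifibrocyte markers had unscaled medians of -1.02 and -2.17, so nearness to a list names no cell type. Meox1, at -2.45 unscaled, was lower than each fibroblast marker, but Comp of the matrifibrocyte list was lower still at -3.48. The part of any cell type was not tested. The subtraction gave every probe the same SE of 0.52, and no call on a member rests on its p-values.

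**Figure D4:**
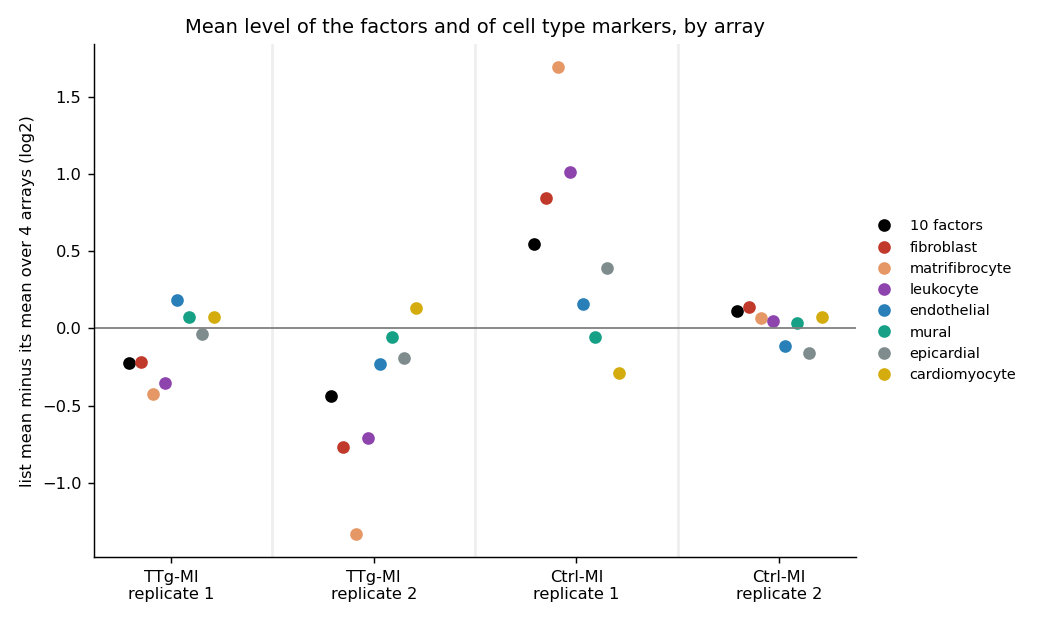
Mean log2 level of the 10 factors and of 7 lists of cell type markers on each array (x axis), each list less its own mean over the 4 arrays (y axis). The factors, fibroblast, matrifibrocyte and leukocyte lists are above 0 on both Ctrl-MI arrays and below 0 on both TTg-MI arrays, most so on Ctrl-MI heart 1 and TTg-MI heart 2, while the endothelial and mural lists do not separate the groups.

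Most markers of later fibroblast states also had a lower TTg-MI mean, but not all of them separated the groups. Of 8 activated fibroblast markers 6 had a lower TTg-MI mean. In limma 4 were lower at an unadjusted p of at most 0.05, against 5.28% of all named genes. They were led by the latent TGF-beta binding protein gene Ltbp2 (-1.25, SE 0.21) and the collagen cross-linking gene Lox (-1.79, SE 0.36). The contractile gene Acta2, the 1 marker higher at that threshold (3.21% of all named genes) and named for it, differed by 1.26. Of 8 matrifibrocyte markers 7 had a lower TTg-MI mean, 5 at that threshold, with a median of -2.17. Ecrg4, a secreted peptide precursor gene, differed by -2.12, and by -1.39 without Ctrl-MI heart 1. Epicardial markers, the lineage in which Tcf21 first acts, differed less, with a median of -0.22, 6 of 8 lower means and 0 at an unadjusted p of 0.05. They averaged 6.50 and 6.35 in TTg-MI and 6.93 and 6.38 in Ctrl-MI, and the groups overlapped. The part of a change in cell numbers in the factors' differences was not tested.

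Genes listed as relatives of the factors differed by -0.55 (Snai1) to 0.37 (Mkx). Of 13 measured relatives (of 14 listed, among them Twist2, Prrx2, Osr2, Snai1, Runx3 and Tcf15) 9 were lower on average in TTg-MI, with a median of -0.021. In limma 1 was lower at an unadjusted p of at most 0.05, where 5.28% of all named genes were, and 0 were higher. That 1 was Snai1, the Snail repressor related to Snai2, at 6.18 and 6.23 in TTg-MI and 6.99 and 6.53 in Ctrl-MI (-0.55, SE 0.20, unadjusted p 0.0359). Its difference was -0.33 without Ctrl-MI heart 1. Prrx2, the paralog of Prrx1, differed by -0.36 (SE 0.24) with overlapping groups, and by -0.051 without Ctrl-MI heart 1 and -0.68 without Ctrl-MI heart 2. Tcf24 differed by -0.28 (SE 0.17), and by -0.15 without TTg-MI heart 1.

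Partner proteins pair with the factors or restrain them. Of 11 measured partners 9 were lower on average in TTg-MI, with a median of -0.34, and 4 were lower at an unadjusted p of at most 0.05, against 5.28% of all named genes, while 0 were higher. Tcf12, an E-protein that forms dimers with Tcf21- and Twist-type factors, read 10.52 and 10.47 in TTg-MI and 11.53 and 11.28 in Ctrl-MI (-0.91, SE 0.17, unadjusted p 0.00196). Both TTg-MI hearts were below both Ctrl-MI hearts. Id1, an inhibitor that captures E-proteins, differed by -0.61 (SE 0.17) and Id3, of the same family and named here after its value was seen, by -0.87 (SE 0.35, and -0.42 without Ctrl-MI heart 1). Zeb1, a zinc finger repressor that acts beside Snail factors, differed by -0.61 (SE 0.16). None passed adjustment, the smallest adjusted p in limma being 0.531.

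Upstream regulators of fibroblast activation, the Smad, Srf, Mrtf, Yap and Tead factors, lay between -0.70 and 0.69. Of 13 measured 9 were lower on average in TTg-MI, with a median of -0.20. In limma 1 was lower and 0 higher at an unadjusted p of at most 0.05, against 5.28% and 3.21% of all named genes. Wwtr1, which encodes the Hippo co-activator TAZ, read 9.87 and 9.58 in TTg-MI and 10.53 and 10.31 in Ctrl-MI (-0.70, SE 0.18, unadjusted p 0.010). Its groups did not overlap. Smad7, an inhibitor of TGF-beta signalling, differed by -0.56 (SE 0.23) and by -0.26 and -0.85 without Ctrl-MI hearts 1 and 2. Mrtfb, a co-activator of Srf, differed by 0.69 (SE 0.33) and by 1.17 and 0.21 without TTg-MI hearts 1 and 2.

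The genes listed as targets of Scx come from work on cardiac fibroblasts and tendon. All 6 were lower on average in TTg-MI, with a median of -1.27. At an unadjusted p of at most 0.05 in limma 3 were lower, against 5.28% of all named genes, while 0 passed adjustment (smallest adjusted p 0.578 in limma). The collagen genes Col1a1 and Col1a2 of this list are also fibroblast markers, and the groups overlapped for the tendon gene Tnmd. Fibronectin (Fn1) read 9.88 and 8.92 in TTg-MI and 12.34 and 10.36 in Ctrl-MI (-1.95, SE 0.68), and its difference was -0.96 and -2.93 without Ctrl-MI hearts 1 and 2. The gelatinase gene Mmp2 differed by -1.18 (SE 0.43), and by -0.65 without Ctrl-MI heart 1 and -0.78 without TTg-MI heart 2. The collagen gene Col3a1 differed by -1.67 (SE 0.65), and by -2.67 and -0.68 without TTg-MI hearts 1 and 2.

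Among cartilage genes of the kind Sox9 controls, Comp had the lowest p. Of 10 measured 4 had a lower TTg-MI mean and the median was 0.044. At an unadjusted p of at most 0.05 in limma 1 was lower, against 5.28% of all named genes, and 0 after adjustment. Matn1 and Cnmd were under the lower quartile of all 4 arrays, and Cytl1 had overlapping groups and a wide 95% interval (-2.72 to 1.61). Comp, a matrix protein of cartilage, tendon and old scars, read 8.64 and 7.21 in TTg-MI and 12.80 and 9.999 in Ctrl-MI (-3.48, SE 0.95, unadjusted p 0.0123). Its difference was -2.08 without Ctrl-MI heart 1. Col11a1 and Col11a2, which encode a minor cartilage collagen, differed by 0.16 (SE 0.16) and -0.15 (SE 0.19). As single arrays were left out these ranged from 0.066 to 0.25 and from -0.35 to 0.055.

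Of 4 genes reported downstream of Meox factors in mouse fibroblasts or in vascular cells, 3 were lower by more than 2 log2 units in TTg-MI. The list's median was -2.47, and 2 were lower at an unadjusted p of at most 0.05 in limma, against 5.28% of all named genes. Periostin (Postn), the matricellular marker of activated fibroblasts, read 10.78 and 7.71 in TTg-MI and 12.62 and 11.53 in Ctrl-MI (-2.83, SE 0.99), with -4.37 and -1.30 without TTg-MI hearts 1 and 2. Cdkn1a, the cell cycle inhibitor p21, read 11.00 and 9.26 in TTg-MI and 12.81 and 12.64 in Ctrl-MI (-2.59, SE 0.54, unadjusted p 0.00380), and differed by -1.72 without TTg-MI heart 2. Ccn2, connective tissue growth factor, differed by -2.35 (SE 1.10), a value that Ctrl-MI heart 1 set, as it was -0.58 without that array and -4.12 without Ctrl-MI heart 2. The fourth, the cell cycle inhibitor gene Cdkn2a, was under the lower quartile on all 4 arrays.

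**Figure D5:**
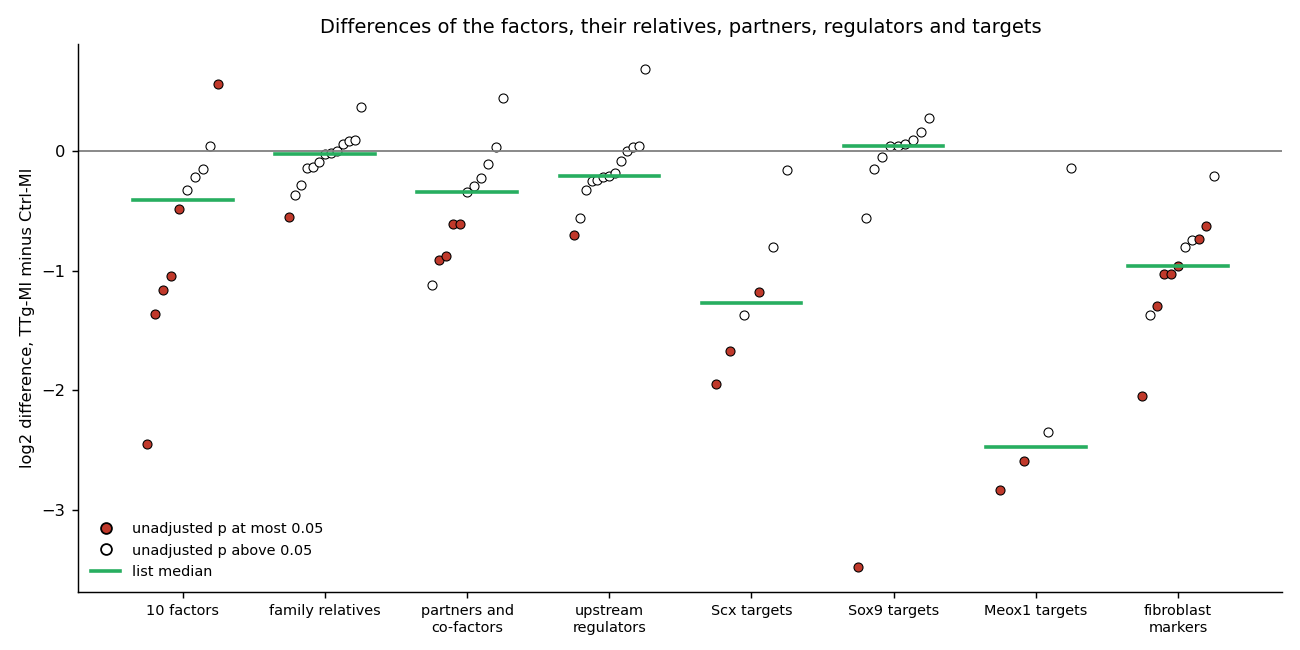
Log2 differences, TTg-MI minus Ctrl-MI (y axis), of the 10 factors, of 6 lists of related genes and of the fibroblast markers; each point is a gene, filled where its unadjusted p is at most 0.05, and green lines are list medians. The relatives and the Sox9 list have medians of -0.021 and 0.044, with Comp far below at -3.48, while the Scx and Meox1 lists have medians of -1.27 and -2.47.

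The genes most like Tcf21 and Meox1 over the 4 arrays were sought by the distance between log2 profiles, each centred on its own mean, among 10418 genes whose higher group mean reached the median probe. Nearest to Tcf21 were the cathepsin gene Ctsz, the polyamine acetyltransferase gene Sat1, Arfgap3, Ifrd1 and the syndecan gene Sdc3, at distances of 0.084 to 0.19 log2 units. Nearest to Meox1 were the secreted Wnt antagonist gene Frzb, the muscle gene Xirp2, the microfibril gene Mfap5, Lyz2 and the Z-disc gene Synpo2l, at 0.41 to 0.47. They differed by -1.41 to -1.21 around Tcf21 and by -2.66 to -1.98 around Meox1. With 4 arrays that share 1 contrast such a likeness is a description of these hearts. Without Ctrl-MI heart 1 the differences of Frzb and Synpo2l were -1.75 and -1.26.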

How the data were processed

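Affymetrix Expression Console 1.4 is named in the submitters' processing notes for the 4 arrays. The authors deposited 1 value per probe, read here as log2 because of its range, since the base, summarization, normalization and genome build are not given in the sources used here. Probes were named from GEO's platform annotation, in which 19572 of 22206 had 1 symbol, 0 had several and 2634 had none here, giving 19505 symbols. Each symbol was read through its probe with the highest mean of the 4 arrays, and each of the 10 members had 1 probe.

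All 22206 probes were fitted with limma 3.58.1 in R 4.3.3 by lmFit and default eBayes. The two-sided p-values were adjusted by Benjamini-Hochberg across the whole table and read at 0.05. The number of arrays sets the precision, with 2 residual degrees of freedom and 3.56 more from the shared variance. The fit was tested on simulated data.

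The members, the 6 lists of related genes and the 12 marker lists were chosen with earlier results of these data known. From each list of related genes the 3 with the smallest unadjusted p were named, and from each marker list up to 2, where the higher group mean reached 5.48, the highest lower quartile of the arrays. Id3 and Acta2 were named after their values were seen, and other genes as list members or background. Of 159 genes written in all lists, 149 were measured. Alternatives were quantile normalization, median centring, scaling to fibroblast markers, a filter on dim probes, a robust prior with an intensity trend, a block for the replicate number, an ordinary linear model, the mean of a symbol's probes and leaving out each array. Promoter windows come from RefSeq, build GRCm38.p6.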

Additional observations from a re-analysis of the deposited data

How the results depend on the processing

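Only 4 arrays were compared, and a fit without 1 of them assumes that the heart left alone in its group varies as the other group does. Of 119 member differences under the alternatives 113 kept their sign, and 3 passed the adjusted threshold, namely Tcf21 (adjusted p 0.0329) and Runx1 (0.0475) without Ctrl-MI heart 2 and Meox1 (0.0302) with the replicate block. For the other 53 named genes 608 of 628 values kept their sign. The labels give the replicate numbers no meaning, so the numbers were not taken as pairs. Across probes, the deviations of the replicate 1 hearts from their group means correlated at 0.163 between TTg-MI and Ctrl-MI. The replicate block gave 7 calls among all probes and 1 adjusted call among the members, against 1 and 0 without it. In the lists of related genes it gave 1 higher and 17 lower genes at an unadjusted p of 0.05, against 0 and 12. The shares of all named genes also rose with the block, to 4.63% higher and 6.78% lower from 3.21% and 5.28%. Leaving out single arrays gave 1 to 332 calls among all probes, 0 to 2 adjusted calls among the members, 2 to 5 lower and 0 to 1 higher members at an unadjusted p of 0.05, 7 to 8 members with TTg-MI below and 1 to 2 with TTg-MI above without overlap, a member median of -0.50 to -0.34, and 5 to 20 lower and 0 to 1 higher related genes. The 332 calls, which came without Ctrl-MI heart 2, compare with 2 without Ctrl-MI heart 1. In the fits without an array, 32.8% to 36.5% of all named genes lay below and 33.4% to 36.7% above without overlap. On all 4 arrays these shares were 19.1% and 19.2%, so the higher member counts without overlap are not read as firmer separation. An intensity trend with a robust prior gave 4 calls among all probes and 1 higher related gene, where 3.33% of all named genes were higher. The ordinary linear model gave 0 calls among all probes, with 1241 at an unadjusted p of 0.05. At that threshold it gave 1 lower (Osr1) and 0 higher members, and 2 lower and 1 higher related genes. Of all named genes 2.91% were lower and 2.71% higher in that fit. The filter on dim probes, which tested 11516, dropped Twist1 and left 0 higher members, against 3.41% of the named genes it kept. Subtracting the mean of the fibroblast markers gave 334 calls among all probes, a member median of 0.58, 1 lower and 2 higher members, 2 below and 4 above without overlap, and 4 lower and 14 higher related genes. The counts of calls and of lower and higher genes come from 1 SE shared by every probe and are not read as results. The counts without overlap and the median do not use that SE. On that scale 0.51% of all named genes lay below and 86.4% above without overlap. That scaling, which moves the median of all named genes to 0.99, turned the sign of Osr1 (0.50), Snai2 (0.66), Twist1 (0.77) and Scx (0.83) among the members. It also turned Tcf12 (0.075), Id3 (0.11), Dpep1 (0.25), Wwtr1 (0.29), Upk3b (0.31), Zeb1 (0.37), Id1 (0.37), Pecam1 (0.43), Smad7 (0.43), Snai1 (0.43), Msln (0.53), Prrx2 (0.62), Cdh19 (0.66), Tcf24 (0.70), Kcna1 (0.77), Dcx (0.82) and Col11a2 (0.84). As single arrays were left out, Prrx1 ranged from -0.18 to 0.27, Upk3b from -1.51 to 0.15, Dcx from -0.34 to 0.0050, Twist1 from -0.45 to 0.010 and Col11a2 from -0.35 to 0.055. The causes were not tested.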

Other observations

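Markers of mural cells, adipocytes and nerve sheath cells were also read. Of 8 mural markers 4 had a lower and 4 a higher TTg-MI mean, with a median log2 difference of -0.021, and Abcc9 and Kcnj8, channel genes of pericytes that muscle also uses, differed by 1.19 (SE 0.50) and 0.31 (SE 0.16). The Abcc9 difference was 0.43 and 1.96 without Ctrl-MI hearts 1 and 2. Of 5 adipocyte markers 3 had a lower mean, with a median of -0.050, and Plin1 and Cidec differed by 0.22 and 0.26, or by 0.18 and 0.068 without Ctrl-MI heart 1. Of 3 measured Schwann cell markers 3 had a lower mean, and Cdh19 and Kcna1 differed by -0.33 and -0.22, or by -2.2e-04 and -0.067 without TTg-MI heart 1. In limma 0 genes of these 3 lists reached an unadjusted p of 0.05 on all 4 arrays. Ryr2, the calcium release channel of heart muscle, was higher in TTg-MI (0.89, SE 0.32, unadjusted p 0.0353 in limma), by 0.45 without Ctrl-MI heart 1. The troponin gene Tnni3 differed by 0.30 (SE 0.21), or by 0.050 without Ctrl-MI heart 1. The epicardial genes Upk3b and Msln differed by -0.68 and -0.45 and the joint and valve gene Prg4 by -1.21 (SE 0.65), each with overlapping groups. Leaving out Ctrl-MI heart 1 put Upk3b at 0.15, Msln at -0.11 and Prg4 at -0.56, and leaving out Ctrl-MI heart 2 put them at -1.51, -0.80 and -1.86. Dcx, also on the valve and cartilage list, differed by -0.17.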
